A study of Mus musculus with 30 samples.

Results

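Maturation of untreated C2C12 myotubes was followed from day 2 to day 4 of differentiation. The comparison uses the 3 libraries labelled 0 µM on day 4 and the 3 labelled 0 µM on day 2, which are 6 of the 30 RNA-seq libraries of the study. C2C12 is an established line of mouse myoblasts, the dividing precursors of muscle fibres, and it stands here for muscle as a single line grown without nerve or load. Cells were kept in DMEM with 20% fetal bovine serum, and differentiation began with a change to DMEM with 2% horse serum, in which hexavalent chromium was supplied as potassium chromate. Its doses were 0, 2 and 5 µM. The 10 groups of 3 libraries are day 0 at 0 µM and each of the 3 doses on days 1, 2 and 4. The labels name the replicates biological and say no more, so that p-values measure the spread between these libraries, which may be in part technical.

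When serum is withdrawn, myoblasts leave the cell cycle, switch on the transcription factor myogenin, and fuse into multinucleated myotubes under the control of the membrane proteins myomaker and myomixer. Myotubes then fill with sarcomeres, the repeated units of myosin and actin filaments that contract, and with the membrane systems that release calcium on excitation. In a maturing muscle, embryonic forms of many sarcomere proteins give way to adult ones, and a share of C2C12 cells stays mononucleated and unfused as so-called reserve cells.

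Each value is a level in scaled CPM, the CPM (reads of a gene relative to the library total) that the authors deposited, with a further scaling per library. The 6 libraries held 20.8 to 24.4 M recovered reads (M, mega), 1 read was worth 0.0411 to 0.0507 scaled CPM, and 13255 to 14240 genes per library were above 0. Changes are differences of log2(scaled CPM + 1), which understate the change of genes near 1 scaled CPM, and a fold is the ratio of the mean scaled CPM. A gene is said to have risen or fallen, or to be higher or lower, when limma gave a Benjamini-Hochberg adjusted p below 0.05 over 12725 genes tested, and all adjusted p-values come from that fit. Means are given with the SD of 3 libraries. RNA came from whole cultures, so that fewer cells of a kind and less RNA per cell cannot be told apart.

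Between day 2 and day 4, 1677 genes rose and 1976 fell, 13.2% and 15.5% of the genes tested. A change of 2-fold or more on the log2 scale was called for 446 risen genes (3.5%) and 347 fallen genes (2.73%), and the median change of all genes tested was -0.03. The largest rises were genes of the contractile apparatus and of cell surface and matrix. Most of the lists of sarcomere, calcium and energy genes held more risen members than the background, and the lists of cell division genes more fallen ones. Scaling by library total in place of the authors' scaling moved the split to 1330 risen and 2433 fallen, with a median shift of -0.07.

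**Figure D1:**
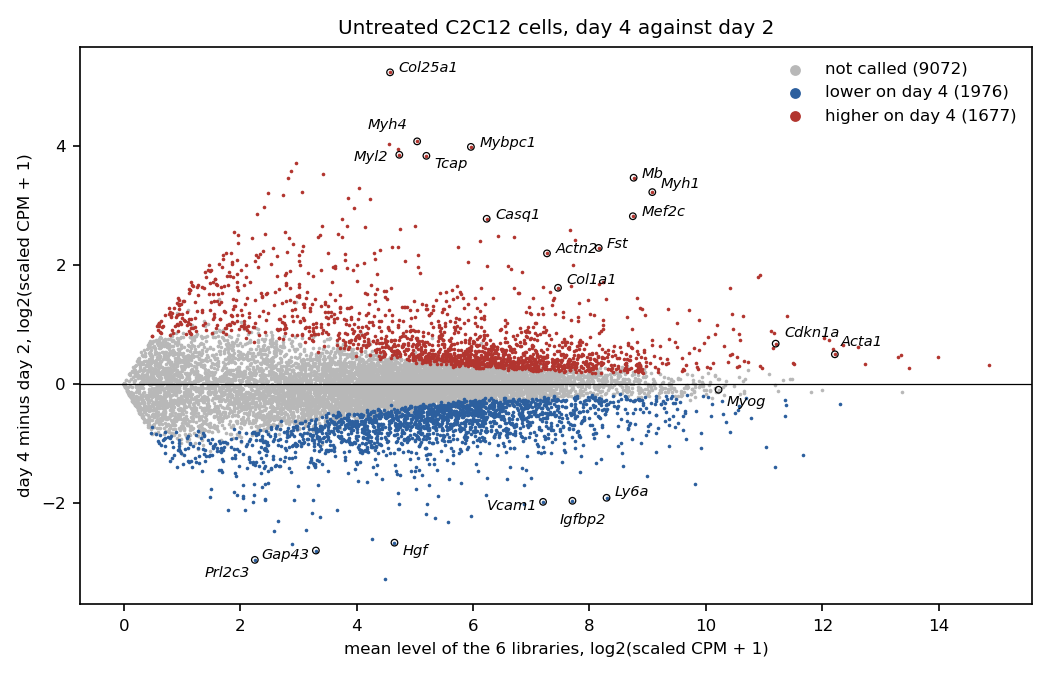
Change from day 2 to day 4 in untreated cells (y axis, log2 of scaled CPM + 1) against the mean level of the 6 libraries (x axis, same scale), 1 point per gene tested; red points rose, blue points fell and grey points were not called. The circled genes named in the text run from Col25a1 at 5.25 to Prl2c3 at -2.96, while Myog lies at -0.10.

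The cultures carried the defining transcripts of skeletal muscle on both days. Skeletal actin Acta1, the main actin of adult fibres, stood at 3790.4, 3900.2 and 4108 scaled CPM in the day 2 libraries and at 5465, 6205 and 5072 on day 4, and the day 4 libraries were all above those of day 2. The rise of 0.50 in Acta1 (SE 0.08, adjusted p = 8.5e-06) lost its call under quantile normalization, at 0.09. Levels of the markers of other cell types are given here for each list, and whether low values were set to 0 before deposit is not known, so that a listed 0 may not be a count of 0. Listed at 0 in all 6 libraries were 6 of 11 leukocyte markers, among them Ptprc and Cd3e, 4 of 10 endothelial markers (Cdh5, Kdr, Tie1 and Emcn), 4 of 10 epithelial markers (Epcam, Krt5, Krt18 and Esrp1), 5 of 10 neural, 5 of 12 osteoblast and chondrocyte, 3 of 12 adipocyte and 1 of 12 fibro-adipogenic markers (Dpp4). Summed levels of the leukocyte markers were 2.47 to 4.40 scaled CPM on day 2 and 1.30 to 3.09 on day 4, and those of the adipocyte markers 22.3 to 27.1 and 12.2 to 15.9. The endothelial sums were 1.31 to 4.07 and 0.603 to 2.60, the epithelial sums 9.37 to 15.4 and 20.6 to 31.5, and the neural sums 81.4 to 85.4 and 76.9 to 90.8, the last being mostly Tubb3 and Stmn2. The osteoblast and chondrocyte sums of 1424 to 1492 and 482 to 489.9 were mostly Spp1, which muscle cells also express. The fibro-adipogenic markers, of which C2C12 cultures express some, summed to 1390.4 to 1420.6 on day 2 and 568.8 to 686.5 on day 4.

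Among the myogenic transcription factors, Myod1 and Myf5 fell, Myog did not pass the test and Mef2c rose. Myod1, which commits cells to muscle, stood at 163, 172 and 199 scaled CPM on day 2 and at 131, 143 and 149 on day 4, a fall of 0.33 (adjusted p = 0.011). Without day 2 replicate 3 or day 4 replicate 1 the Myod1 change was -0.24 or -0.28 and was no longer called. Myf5, the early myoblast factor, was at 40.1, 46.5 and 43.0 and then at 24.8, 19.7 and 22.3, with a log2 change of -0.93 (SE 0.12, adjusted p = 2.4e-07). Myog, the gene of myogenin, had already reached 1229 ± 34.5 scaled CPM on day 2 and stood at 1152 ± 84.7 on day 4, a change of -0.10 that did not pass (adjusted p = 0.53). Myf6, the MRF of mature fibres, was at 0.370, 1.01 and 0.335 on day 2 and 3.82, 2.48 and 2.88 on day 4, and rose by 1.38.

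Mef2c, a MADS-box factor that acts with the MRFs on muscle genes, changed most in this list. It was at 99.3, 115 and 99.5 scaled CPM in the day 2 libraries and at 759, 618 and 879 in those of day 4, so the groups were far apart. This is 7.20-fold, or 2.82 on the log2 scale (SE 0.12, adjusted p = 3e-18). Its relative Mef2a went from 458 ± 17.4 to 521 ± 42.0, a change of 0.18 that did not pass (adjusted p = 0.13). Per length of exon, Mef2c made up 9.40 ± 0.713% of the summed Mef2a, Mef2c and Mef2d level on day 2 and 36.8 ± 2.36% on day 4, so its share of the family grew while that of Mef2a went from 44.2 ± 2.11% to 27.5 ± 1.26%. Csrp3, a Z-disc protein that also acts as a cofactor of MyoD, rose 3.05-fold, and Vgll2, a TEAD cofactor, fell by 1.13. Of 22 members of the list tested, 6 rose and 6 fell, with a median of 0.09.

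The myosin heavy chains, most of them motors of the thick filament, had the highest median change of the lists. The list also holds the non-muscle form Myh14 (0.74), which did not pass. Of 9 tested, 7 rose and 0 fell against 13.2% risen over all genes, the median was 2.47, and the replicates of all 9 were higher on day 4 without overlap, as for 18.7% of all genes. Myh3, the embryonic form, was at 1075, 1174 and 996 scaled CPM on day 2 and at 1890.4, 1664 and 2269 on day 4, a 1.79-fold rise (log2 change 0.83, adjusted p = 5.3e-05). Myh8, the perinatal form, went from 58.0, 65.3 and 47.1 to 326, 319 and 392, or 6.08-fold. The adult fast forms showed the larger folds.

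Myh1, which encodes the adult fast IIx chain, was at 93.7, 104 and 109.6 scaled CPM on day 2 and at 927, 843 and 1163 on day 4, a log2 change of 3.23 (SE 0.15, adjusted p = 1e-17). Myh4, the fastest IIb chain, was at 2.88, 2.15 and 2.76 and then at 63.9, 44.0 and 75.9, a 23.6-fold rise and the second largest log2 change of the genes named by size. Myh2, the IIa chain, rose from 2.46, 2.19 and 3.68 to 22.5, 14.9 and 33.9, with a wide spread on day 4. The slow and cardiac chain Myh7 also rose, from 26.2, 37.3 and 29.2 to 172, 151 and 202 (2.47, adjusted p = 1.5e-08). In no case did a day 4 library come down to the day 2 range.

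Compared per length of exon, embryonic myosin remained the most abundant form on day 4, but its part shrank. Myh3 made up 87.9 ± 0.311% of the summed sarcomeric heavy chains on day 1, 87.3 ± 0.908% on day 2 and 59.3 ± 0.440% on day 4. Over the same days the share of Myh1 was 10.4 ± 0.319%, 7.93 ± 0.981% and 28.4 ± 0.444%. The Myh4 share went from 0.213 ± 0.0450% to 1.86 ± 0.254% between day 2 and day 4, and that of Myh8 from 2.35 ± 0.218% to 5.46 ± 0.317%. These paralogs are nearly alike in sequence, and how reads shared between them were counted is not given in the sources used here, so the shares are uncertain. The share of Myh3 thus differed little between day 1 and day 2 and was lower in every day 4 library than in any day 2 library.

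**Figure D2:**
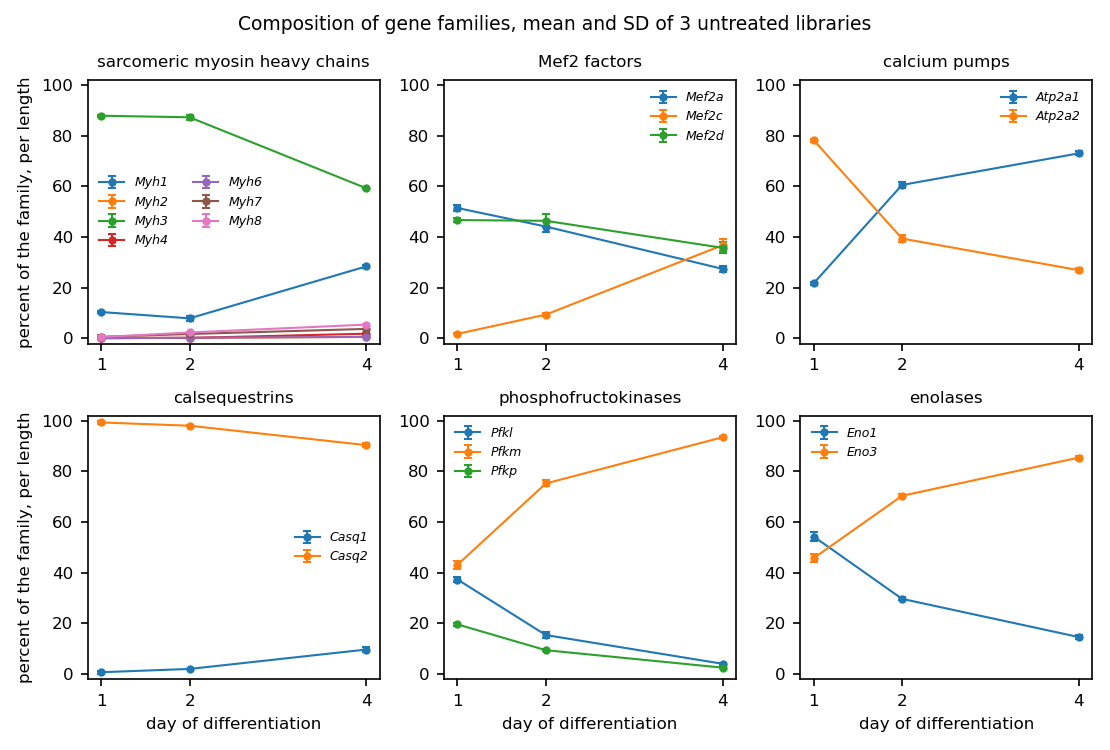
Share of each gene in the summed level of its family (y axis, percent, levels divided by exon length) on days 1, 2 and 4 in untreated cells, points and bars showing the mean and SD of 3 libraries. Myh3 fell from 87.3% to 59.3% of the myosin heavy chains and Mef2c rose from 9.40% to 36.8% of the Mef2 factors between day 2 and day 4; the families were chosen after values were seen.

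Beside the rise of Mef2c, the letters that MEF2 factors bind were looked for in the 250 bases before the RefSeq start site (mouse GRCm38.p6). The MEF2 motif, which reads the same on both strands, was present in 8.78% of 319 such windows of genes that rose by 2-fold or more, in 2.02% of 247 windows of genes that fell by 2-fold or more, and in 1.75% of 9616 windows of all genes tested. It was in 22.6% of 62 windows from the sarcomere lists and in 3.01% of all 27025 RefSeq windows. The E-box letters CAGCTG, a preferred site of MRFs that is its own complement, were in 18.5%, 17.4% and 11.9% of the windows of risen, fallen and all tested genes. A match of letters is a description and no evidence of binding. The stretches below are 30-base windows around the motif (capitals) for 8 of the 28 genes that rose by 2-fold or more with a match, written 5′ to 3′ on the strand of the gene, and chosen after the values were seen. Myh1, Myh4 and Myh8, neighbours on chromosome 11, are shown because they carry the same motif letters. The rest of the 8 are muscle genes of the lists, but genes that no list held had matches too. Among these were Hephl1 (2.61), Limch1 (2.21) and Rnase6 (2.20).
Myh4 (chr11:67237620-67237649, + strand): ccctgtcaaaTTATTTATAGatgacaagaa
Myh1 (chr11:67199881-67199910, + strand): acaactcaaaTTATTTATAGgagattgatt
Myh8 (chr11:67277015-67277044, + strand): ccttgtcaaaTTATTTATAGgagattggtt
Fbxo40 (chr16:36990549-36990578, - strand): gaacacagggTTATAATTAGagcaagaggc
Mylk4 (chr13:32784048-32784077, - strand): ggcctggcatCTAAAATTAAtattcttccc
Myom3 (chr4:135759670-135759699, + strand): ctcagcgctgCTATATTTAAgacggttaca
Capn3 (chr2:120463511-120463540, + strand): cacttcatgtCTATTTTTAGttttcctggc
Klhl41 (chr2:69670047-69670076, + strand): gagccggtgtCTATATTTAGccggtgggat
The Myh4, Myh1 and Myh8 matches began 182, 211 and 99 bases before the start site. Fbxo40, a muscle ubiquitin ligase subunit, rose 7.49-fold to 29.6 ± 2.03 scaled CPM, and the calpain Capn3, a muscle protease, rose 2.54-fold to 39.5 ± 4.90.

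All 8 myosin light chain genes and light chain kinases tested rose, with a median of 1.51. Myl2, the regulatory chain of slow fibres and heart ventricle, was at 2.30, 2.47 and 2.51 scaled CPM on day 2 and at 47.3, 53.4 and 45.7 on day 4, the largest log2 change of the list at 3.86 (adjusted p = 8.1e-14). Myl1, the essential chain of fast fibres, stood at 792, 934 and 847 on day 2 and at 3066, 3324 and 2794 on day 4, and Myl4, the embryonic and atrial essential chain, rose nearly as much (1.80). The kinase gene Mylk4 rose 3.15-fold. Slow, fast and embryonic light chains therefore all moved upward.

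Of 11 troponin and tropomyosin genes, the calcium switch of the thin filament, 10 rose and 0 fell, with a median of 1.03 and changes between 0.08 and 1.41. Tnnt3, fast troponin T, was at 1003, 960.2 and 998 scaled CPM and then at 2096, 2223 and 2230.4, a 2.21-fold rise (adjusted p = 7.2e-11). Slow troponin T Tnnt1 rose 2.44-fold, fast troponin C Tnnc2 2.27-fold and tropomyosin Tpm2 2.22-fold. Slow troponin C Tnnc1 rose 1.82-fold. Per length, Tnnt3 held 71.5 ± 0.666% of the troponin T level on day 2 and 71.9 ± 0.701% on day 4, and Tnnc1 held 59.6 ± 0.630% of the troponin C level on day 2 and 54.0 ± 1.46% on day 4. Tpm3 went from 303 ± 1.32 to 320.2 ± 14.3 and did not pass. Cardiac actin Actc1, which is expressed in developing skeletal muscle, rose 1.52-fold to 2734 ± 306 scaled CPM.

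In the Z-disc list, proteins that anchor the thin filaments, 15 of 22 rose and 0 fell (median 0.67). Titin-cap Tcap was at 3.74, 2.51 and 5.35 scaled CPM on day 2 and at 58.8, 83.2 and 60.8 on day 4. Myotilin Myot was at 0, 0.0914 and 0.293 on day 2 and at 12.7, 10.4 and 14.4 on day 4. The cross-linker Actn2 rose 4.65-fold to 253 ± 12.6 (log2 change 2.20, adjusted p = 1.2e-09). By contrast, the stretch-responsive Ankrd1 went from 424 ± 14.3 to 392 ± 25.8 and filamin Flnc from 658 ± 20.7 to 697 ± 103, and neither passed.

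Of 18 genes for titin, nebulin and the M-band, 16 rose and 1 fell (median 1.08). Mybpc1, slow myosin-binding protein C, showed the largest change of the list, from 7.27, 5.12 and 6.86 scaled CPM to 118, 103 and 128 (3.99, adjusted p = 9.7e-14). The small muscle protein Smpx rose 4.07-fold and the M-band protein Myom3 2.53-fold. Muscle creatine kinase Ckm, which sits at the M-band and regenerates ATP, rose from 344, 392 and 412 to 851, 935 and 969. Of the factors of sarcomere assembly, 11 of 13 rose and 1 fell, led by the kelch proteins Klhl40 (1.35) and Klhl41 (1.25), the small heat shock protein Hspb7 (1.27) and leiomodin Lmod2 (1.17).

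**Figure D3:**
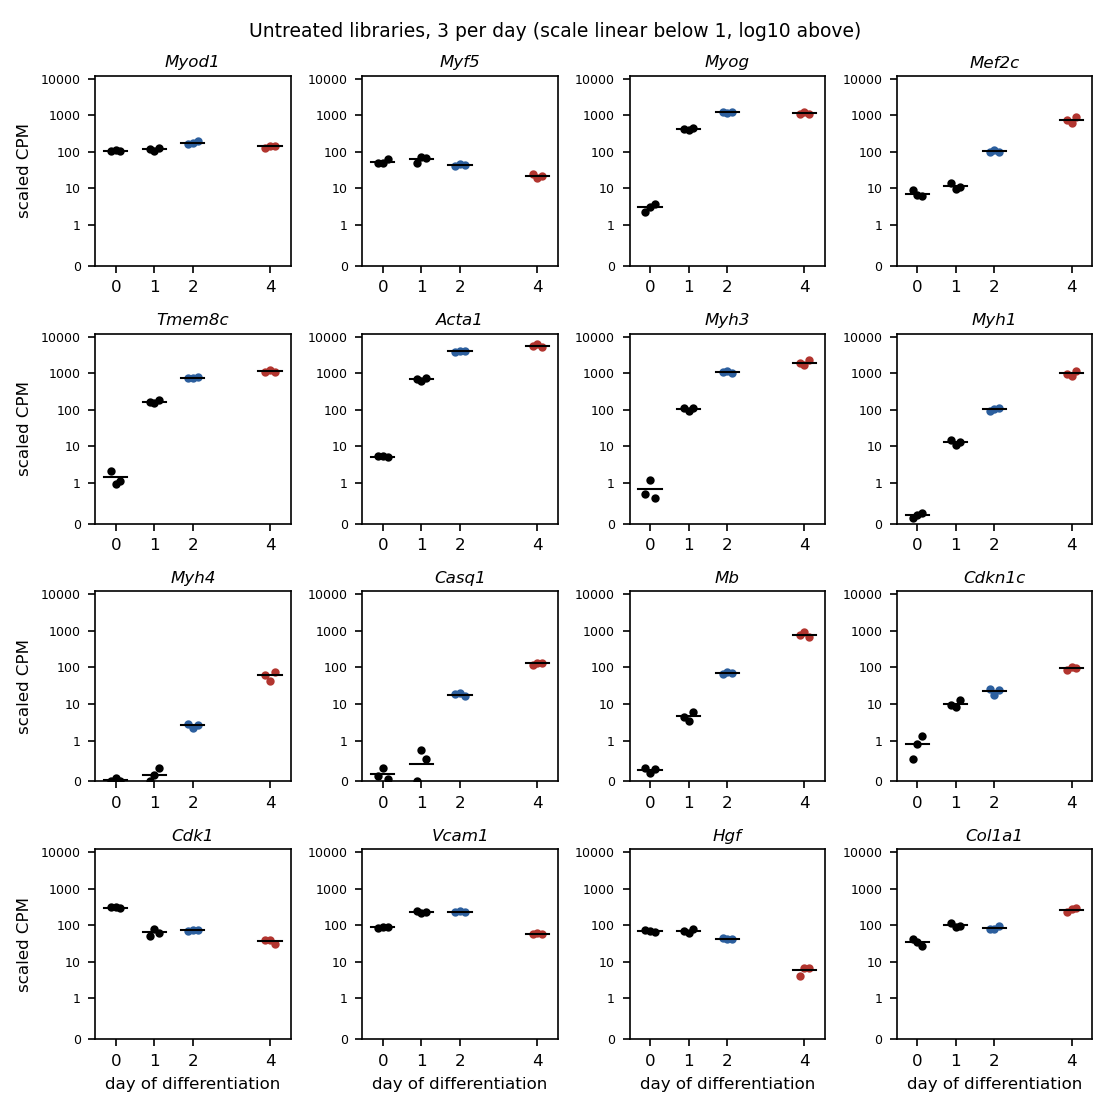
Level of 16 genes (y axis, scaled CPM, linear below 1 and log10 above) in each untreated library on days 0, 1, 2 and 4 of differentiation; each point is 1 of 3 libraries, bars are means, and blue and red mark days 2 and 4. Myog has a mean of 1229 on day 2 and 1152 on day 4, Myh1, Myh4, Mb and Casq1 are higher in every day 4 library than on day 2, and Hgf and Vcam1 are lower.

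Genes of excitation-contraction coupling, which link the depolarised membrane to calcium release, rose in 15 of 19 cases with 0 falls (median 0.92). The calcium channel Cacna1s, the voltage sensor, was at 162, 176 and 167 scaled CPM on day 2 and at 448, 408 and 509 on day 4 (1.42, adjusted p = 8.8e-09). The release channel Ryr1 rose 2.29-fold, triadin Trdn, which holds calsequestrin at the release channel, 3.97-fold, and caveolin Cav3 3.77-fold. Sypl2, a protein of the triad membrane, rose from 1.28 ± 0.343 to 8.28 ± 2.01. The immunophilin Fkbp1a (-0.05) and Mtm1 (0.16) did not pass.

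The calcium store changed in the same direction, with 9 of 13 genes risen and 1 fallen (median 0.66). Skeletal calsequestrin Casq1, the calcium buffer of the store, was at 18.7, 19.5 and 16.2 scaled CPM and then at 119.5, 136 and 136, a 7.19-fold rise (adjusted p = 3.5e-11). The fast calcium pump Atp2a1 went from 659, 661 and 693 to 1911, 1993 and 2256, and the store sensor Stim1 rose 2.48-fold. Per length, Atp2a1 made up 21.8 ± 0.558% of the Atp2a1 and Atp2a2 level on day 1, 60.6 ± 1.24% on day 2 and 73.0 ± 0.780% on day 4. Casq1 made up 2.00 ± 0.152% of the calsequestrins on day 2 and 9.66 ± 0.927% on day 4, so the cardiac form Casq2 still predominated. Parvalbumin Pvalb, the buffer of the fastest fibres, stayed low, at 2.31, 5.07 and 2.04 on day 4, and its call was lost with edgeR and DESeq2.

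At the neuromuscular junction 8 of 16 genes rose and 0 fell (median 0.29). The acetylcholine receptor of fetal muscle holds a gamma subunit, which an epsilon subunit replaces in adult muscle. Chrng, the gamma subunit, rose from 332, 357 and 340.3 scaled CPM to 545, 605 and 534 (0.71, adjusted p = 1.3e-07). Chrne, the epsilon subunit, was listed at 0 in all 3 day 2 libraries and at 1.00, 2.63 and 3.81 on day 4, a call that was lost with DESeq2. Per length, Chrne made up 1.08 ± 0.636% of the gamma and epsilon level on day 4. Acetylcholinesterase Ache went from 0, 0.457 and 0.293 to 7.64, 5.02 and 4.04 and its collagen tail Colq rose 2.97-fold, and the receptor kinase Musk (0.18, adjusted p = 0.42) and rapsyn Rapsn (-0.20, adjusted p = 0.15) did not pass. In the sarcolemma list 11 of 19 rose and 1 fell, and the muscle sodium channel Scn4a was among the risen (1.12).

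Energy supply of muscle showed some of the largest rises. Of 26 genes tested, 18 rose and 2 fell (median 0.96). Myoglobin Mb, the oxygen store, was at 66.6, 74.0 and 69.6 scaled CPM on day 2 and at 776, 940.4 and 668 on day 4, an 11.3-fold rise (log2 change 3.47, SE 0.15, adjusted p = 1.6e-18). The fatty acid transporter Cd36 rose 5.49-fold, AMP deaminase Ampd1 7.29-fold and glycerol phosphate dehydrogenase Gpd1 5.37-fold. The calls of Cd36 and Gpd1 were lost in a fit of all 30 libraries, with the same changes of 2.41 and 2.01. Hexokinase Hk2 rose 1.77-fold to 130.3 ± 19.1.

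Glycolysis did not move as a whole, with 6 genes risen and 5 fallen of 17, but the muscle form of phosphofructokinase rose as the other forms fell. Muscle phosphofructokinase Pfkm went from 232, 254 and 240.1 scaled CPM to 649, 691 and 639.5 (1.44, adjusted p = 7.4e-15). The liver form Pfkl went from 93.7, 96.2 and 107 down to 51.6, 66.9 and 53.2 (-0.79, adjusted p = 2.1e-06), and the platelet form Pfkp fell by 0.76. Per length, Pfkm made up 43.1 ± 1.68% of the 3 forms on day 1, 75.2 ± 1.18% on day 2 and 93.4 ± 0.546% on day 4. Muscle enolase Eno3 made up 70.3 ± 0.639% of the Eno1 and Eno3 level on day 2 and 85.4 ± 0.796% on day 4. The lengths used cover all annotated exons, 1739 bases for Eno3 and 5379 for Eno1, which raises the share of Eno3. Pfkm was likewise taken at 3340 bases, Pfkl at 6675 and Pfkp at 13401. Which form predominated on a given day is therefore uncertain. The common forms Gapdh (0.18) and Pkm (0.11) did not pass.

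Nuclear genes of the respiratory chain showed small changes. Of 36, 18 rose and 0 fell, with changes between 0.03 and 0.60 and a median of 0.25. The complex III subunit Uqcrb was at 153, 177 and 146 scaled CPM and then at 254, 230.2 and 234 (0.60, adjusted p = 3.3e-05), and the complex I subunits Ndufa5 (0.52), Ndufs1 (0.48) and Ndufb8 (0.46) followed. The count of risen members depended on single libraries, at 26 without day 4 replicate 3, 9 without day 4 replicate 2 and 13 with scaling by library total. In the tricarboxylic acid cycle, which feeds the chain, 11 of 20 rose and 1 fell (median 0.29), led by Idh3a (0.51). Of the regulators of mitochondrial biogenesis, Ppargc1a, the coactivator PGC-1alpha, was at 3.49, 3.34 and 2.43 on day 2 and at 11.1, 4.66 and 9.56 on day 4, a rise of 1.14 that was 0.93 and not called without day 4 replicate 1, and Tfam (0.14, adjusted p = 0.35) did not pass.

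Transcripts encoded in mitochondrial DNA took 7.83 ± 0.71% of all reads on day 2 and 10.1 ± 0.92% on day 4. The difference of 2.26 percentage points had an exact two-sided permutation p of 0.1, the smallest that 3 against 3 libraries allow, and the groups did not overlap. Of the 13 genes, 11 rose and 0 fell (median 0.48). The complex I genes mt-Nd2 (0.77, adjusted p = 6.7e-07), mt-Nd5 (0.74) and mt-Nd1 (0.62) were among those with the largest changes, and mt-Nd4l spread widely on day 4 at 1342, 839 and 2689.9 scaled CPM. With quantile normalization the risen count was 5, the median 0.20 and the change of mt-Nd1 0.20 and not called, and without day 2 replicate 3 the count was 7.

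Many genes of cell division fell between day 2 and day 4. Of 33 genes of the G1/S transition and DNA replication, 20 fell and 1 rose, against 15.5% fallen over all genes, and of 31 genes of G2/M and the spindle 23 fell and 0 rose. The medians were -0.58 and -0.69, after -1.88 and -2.09 from day 0 to 1 and 0.28 and 0.19 from day 1 to 2. From day 1 to 2, 6 of the 33 and 2 of the 31 genes were called higher, and 1 and 0 lower. Over all genes 14.6% were called higher and 10.4% lower in that step. The day 2 to 4 change was called lower than the day 1 to 2 change in 14 of the 33 and 8 of the 31 genes, against 5.59% of all genes. Cdk1, the mitotic kinase, was at 70.6, 76.5 and 73.6 scaled CPM on day 2 and at 39.7, 40.0 and 31.4 on day 4 (-0.98, adjusted p = 2.4e-06). The replication licensing factor Cdt1 fell from 12.1 ± 2.00 to 4.44 ± 1.04, the methylation maintenance factor Uhrf1 from 44.5 ± 6.07 to 21.1 ± 1.01, and the checkpoint kinase Bub1 from 29.5 ± 4.02 to 14.6 ± 1.77. Cyclin D1, Ccnd1, which drives entry into the cycle, fell by 0.69 to 40.5 ± 5.91.

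Mki67, the usual marker of cycling cells, was at 6.08, 11.5 and 9.70 scaled CPM on day 2 and at 6.58, 3.55 and 4.78 on day 4, with overlapping groups, and its change of -0.75 did not pass (adjusted p = 0.052). It passed in 8 of the 20 alternatives. Without day 4 replicate 1 the G1/S count was 13 fallen genes. Over the same interval, 4 of 10 genes of CDK inhibitors and the Rb family rose and 0 fell. Cdkn1c, the gene of p57, was at 25.6, 18.0 and 23.8 on day 2 and at 84.2, 106 and 99.1 on day 4, a 4.29-fold rise (adjusted p = 2.5e-08). Cdkn1a, the gene of p21, rose from 1746, 1787 and 1879 to 2645, 2805 and 3245, and Rb1 rose by 0.43. Of 30 p53 target genes 9 rose and 1 fell, 33.3% in all against 28.7% of all genes called either way. Risen members included Eda2r (0.99), Ei24 (0.89) and Mdm2 (0.63), whereas Bax (-0.01) and Pmaip1 (0.08) did not pass.

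Markers of reserve and satellite cells, the unfused muscle precursors, mostly fell, with 10 of 18 lower and 3 higher (median -0.52). The 3 higher were Spry1, Megf10 and Des, whose day 2 means were 59.8%, 74.5% and 78.9% of their day 4 means. Pax7, the satellite cell factor, was at 35.5, 38.0 and 44.4 scaled CPM on day 2 and at 22.0, 16.5 and 23.4 on day 4 (-0.91, SE 0.21, adjusted p = 0.00096). The adhesion molecule Vcam1 went from 234, 242 and 227 to 57.3, 62.3 and 56.0, a 4.00-fold fall and the largest of the list. Notch3 and its target Hey1 fell 2.23-fold and 2.15-fold, while Cd34 (-0.26, adjusted p = 0.29) and Hes1 (-0.06) did not pass. In the Notch pathway as a whole, which holds precursors undifferentiated, 4 of 14 genes fell and 3 rose (1 without day 4 replicate 3). That is 50% in all against 28.7% of all genes called either way. Notch2 fell from 134 ± 3.90 to 63.4 ± 7.49.

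The fusion genes split. Tmem8c, the older symbol of myomaker, was at 727, 755 and 786 scaled CPM and then at 1087, 1211 and 1082, a 1.49-fold rise (adjusted p = 7.3e-05). Gm7325, the older symbol of myomixer, was at 128, 130.3 and 154 and 136, 147 and 109, and its change of -0.08 did not pass (adjusted p = 0.75). Annexin Anxa1 fell 2.21-fold. Over the list, 5 of 23 rose (3 with scaling by library total) and 8 fell, with a median of -0.03. That is 56.5% in all against 28.7% of all genes called either way. Of the 10 fibro-adipogenic markers that passed the filter 5 fell and 0 rose, against 15.5% fallen and 13.2% risen over all genes. Pdgfra went the other way, from 5.56 to 5.79 scaled CPM on day 2 to 6.64 to 9.60 on day 4. Its groups did not overlap, but it did not pass. Ly6a, the stem cell antigen Sca-1, went from 495, 504 and 485 to 136, 147 and 111 and decorin Dcn from 354, 342 and 309.7 to 114, 122 and 121. The part of that list in the falls of matrix and surface genes was not tested.

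**Figure D4:**
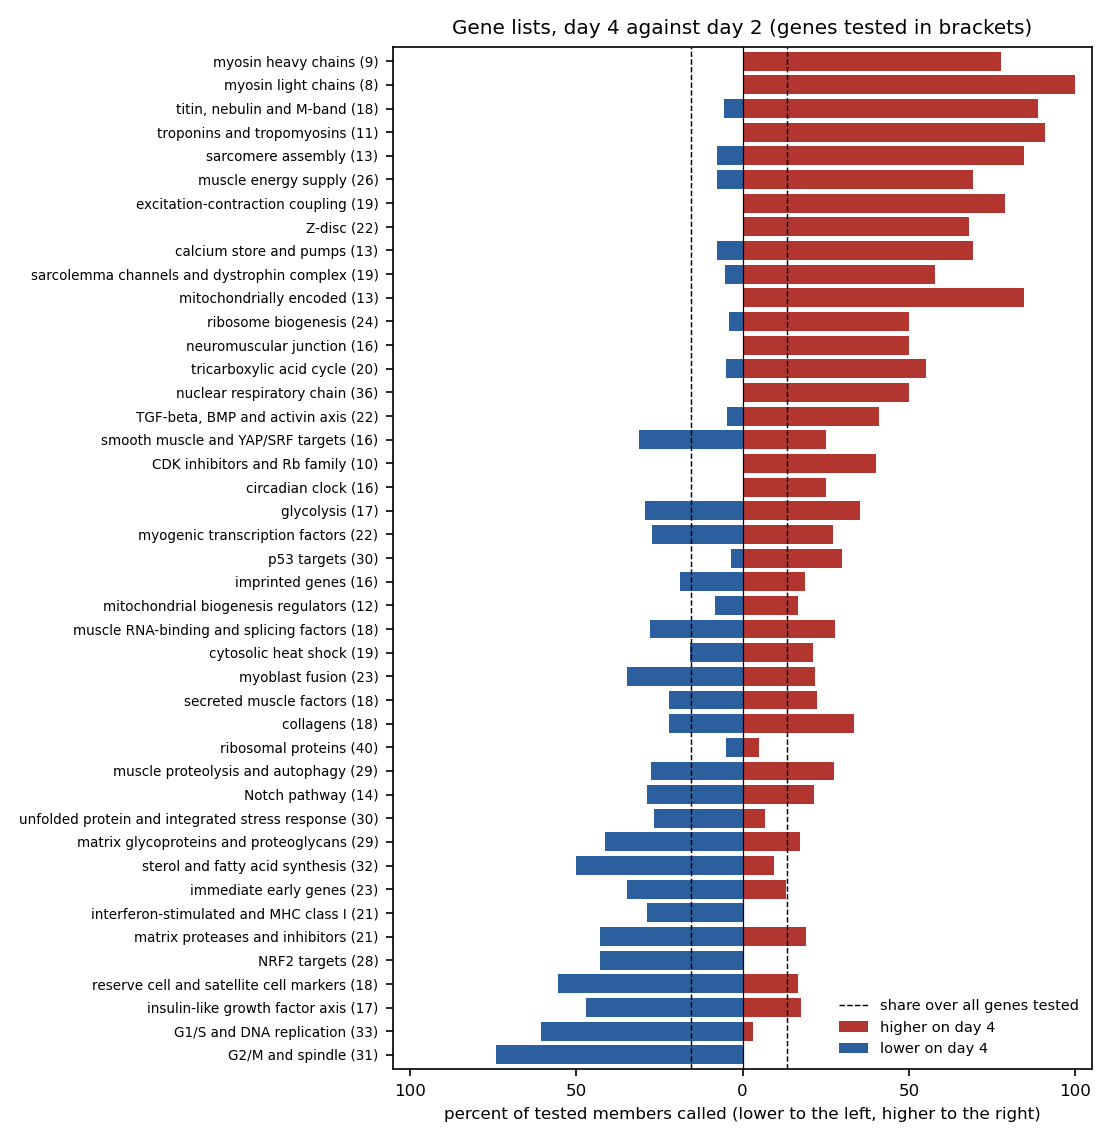
Percent of tested members called higher (red, to the right) and lower (blue, to the left) on day 4 against day 2 for 43 gene lists, with the number tested in brackets and lists in order of their median change; dashed lines give the shares over all genes, 13.2% higher and 15.5% lower. Myosin heavy chains have the highest median, at 2.47, and the G2/M and spindle list the lowest, at -0.69.

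Matrix genes changed in both directions. Of 18 collagen genes 6 rose and 4 fell, 55.6% in all against 28.7% of all genes called either way. Col25a1, a transmembrane collagen known from the innervation of muscle, showed the largest change of all genes named by size, from 0, 0.503 and 0.209 scaled CPM to 49.8, 44.3 and 42.2 (5.25, SE 0.27, adjusted p = 1.8e-16). Col1a1, a chain of the fibrillar type I collagen, was at 80.0, 80.2 and 96.2 on day 2 and at 234, 271 and 289 on day 4, a 3.10-fold rise, while its partner chain Col1a2 went from 894 ± 24.5 to 848 ± 87.1 and did not pass. Col8a1 rose 2.40-fold, and Col16a1 fell 2.50-fold.

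Among the matrix glycoproteins and proteoglycans, 12 of 29 fell and 5 rose (median -0.17). Osteopontin Spp1 went from 1406, 1392 and 1332 scaled CPM to 428, 431 and 420.2 (-1.69, adjusted p = 2.2e-17). Fibromodulin Fmod was at 0, 0.229 and 0.209 and then at 4.77, 4.81 and 7.24, a call that was lost with DESeq2, and periostin Postn rose 4.64-fold. Matrix proteases and their inhibitors fell in 9 of 21 cases and rose in 4. The urokinase gene Plau fell 3.27-fold from 179 ± 5.22, and the metalloprotease of myoblast fusion Adam12 rose 2.24-fold to 21.1 ± 3.22, a call also lost with all 30 libraries. Of the targets of SRF and YAP, connective tissue growth factor Ctgf rose 2.78-fold and transgelin Tagln 2.35-fold, whereas filamin Flna fell 1.76-fold.

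Growth factor genes followed separate courses. In the list of TGF-beta, BMP and activin genes 9 of 22 rose and 1 fell (median 0.21). Follistatin Fst, a secreted inhibitor of activin and myostatin, was at 94.6, 101 and 93.1 scaled CPM on day 2 and at 484, 473 and 466 on day 4, a 4.93-fold rise (adjusted p = 4.1e-12). Gdf5, a BMP family ligand, rose from 2.14, 1.83 and 3.85 to 24.3, 31.8 and 23.4. Gremlin Grem1, a BMP antagonist, went from 203, 195 and 168 down to 67.1, 47.3 and 76.0 (-1.58), and Id1, a target of BMP signals, went from 16.7 ± 1.48 to 15.9 ± 4.37 and did not pass (adjusted p = 0.76).

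In the insulin-like growth factor axis 8 of 17 genes fell and 3 rose (median -0.57). Igf2, the ligand that C2C12 cells secrete as they differentiate, rose from 279, 291 and 266 scaled CPM to 619, 569 and 859 (1.27, adjusted p = 3.9e-06), a call that was lost in the fit of all 30 libraries. The binding protein Igfbp2 went from 338, 300.4 and 354 to 68.6, 110.3 and 77.6, a 3.87-fold fall, and Igfbp4 fell 2.57-fold. The mRNA-binding protein Igf2bp2 fell 2.63-fold. Fallen members numbered 5 when day 2 replicate 2, day 2 replicate 3 or day 4 replicate 2 was left out. Of the imprinted genes 3 of 16 rose (6 with median-of-ratios scaling), including Igf2 and Cdkn1c, and 3 fell. Together 37.5% were called, against 28.7% of all genes called either way. The fallen included Mest, which went from 379, 421 and 389.7 to 170.1, 164 and 138.

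Antioxidant genes under the factor NRF2 fell in 12 of 28 cases with 0 rises (median -0.49). G6pdx, which supplies NADPH, was at 38.9, 40.9 and 44.6 scaled CPM on day 2 and at 15.6, 16.8 and 17.8 on day 4 (-1.26, adjusted p = 9.6e-11). Ugdh, Gsta4 and Srxn1 fell 2.25-fold, 2.32-fold and 2.24-fold, while Hmox1 (-0.04), Gclm (0.12) and Nqo1 (-0.50, adjusted p = 0.052) did not pass. Of 30 genes of the unfolded protein and integrated stress responses 8 fell and 2 rose, 33.3% in all against 28.7% of all genes called either way. The stress factor Ddit3 (CHOP) fell from 11.6 ± 2.32 to 5.52 ± 0.783 and the chaperone Hsp90b1 from 794 ± 59.8 to 527 ± 33.5, and Herpud1 rose 1.64-fold. Among cytosolic heat shock genes 4 of 19 rose, including the small chaperones Hspb8 (0.79) and Cryab (0.73), and 3 fell, including Hspb1 (-0.71). That is 36.8% called either way, not far from the share of all genes.

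Sterol and fatty acid synthesis fell in 16 of 32 genes and rose in 3 (median -0.23). Fdft1, an early step of sterol synthesis, fell 1.70-fold from 225 ± 5.18, and the last step Dhcr7 rose 2.26-fold to 192 ± 10.4. Interferon-stimulated and MHC class I genes fell in 6 of 21 cases with 0 rises, 28.6% in all against 28.7% of all genes called either way. Among the fallen were B2m, from 469, 524 and 464 to 242, 256 and 205, and H2-D1 (-0.98). Immediate early genes fell in 8 of 23 cases and rose in 3, against 15.5% fallen and 13.2% risen over all genes. Their risen share was thus near that of all genes. Klf2 fell by 1.04, and the orphan receptor gene Nr4a1, induced by activity in muscle, rose 2.77-fold to 15.2 ± 3.76.

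Smaller groups showed mixed changes. Of 16 clock genes 4 rose and 0 fell, 25% in all against 28.7% of all genes called either way. The risen included Cry2 (0.93), Tef (0.76) and Bhlhe40 (0.71). Of 29 genes of proteolysis and autophagy 8 rose, including the ligase subunit Asb2 (1.52) and Klhl31 (1.18), and 8 fell, 55.2% in all. Splicing factors and RNA-binding proteins rose in 5 of 18 cases, led by Rbfox1, a splicing regulator of muscle and brain, from 5.80 ± 0.598 to 27.3 ± 4.84 and Rbm38 (1.34), and fell in 5 (3 without day 2 replicate 1 or 2, or day 4 replicate 2). Together 55.6% of that list were called, against 28.7% of all genes called either way. Ribosome biogenesis genes rose in 12 of 24 cases and 1 fell, with Nop16 (0.75) and Rrp12 (0.74) in front, but the count was 7 without day 2 replicate 3 and 6 with scaling by library total. Of 40 ribosomal protein genes 2 rose and 2 fell, 10% in all against 28.7% of all genes called either way. Fallen ribosomal protein genes numbered 11 without day 4 replicate 2.

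By size alone, the 10 largest rises among genes at 5 scaled CPM or more with separate groups were Col25a1, Myh4, Cd24a, Mybpc1, Fxyd6, Myl2, Tcap, Frem2, Myot and Gja5. Of these, 5 are sarcomere genes. Cd24a, a surface glycoprotein, was at 1.52, 1.65 and 1.92 scaled CPM on day 2 and at 45.8, 40.8 and 43.7 on day 4 (4.04, adjusted p = 7.4e-16). Fxyd6, a small membrane protein of the FXYD family, went from 1.68, 1.60 and 3.47 to 40.6, 58.7 and 45.3, and the basement membrane protein Frem2 from 0, 0.274 and 0 to 15.0, 11.9 and 13.3. Gja5, the gap junction protein connexin 40, was below 1 in each day 2 library and at 21.1, 19.4 and 15.6 on day 4. All 4 were at 2.25 scaled CPM or less on average on day 2.

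The 10 largest falls were Nutf2-ps1, Prl2c3, Gap43, Add2, Hgf, Tmc3, Ppp2r2b, Il2rg, Serpinb9b and Glcci1. Hgf, the ligand of the MET receptor that activates satellite cells, was at 44.0, 41.7 and 41.3 scaled CPM on day 2 and at 4.07, 6.79 and 6.96 on day 4, a 7.12-fold fall (-2.67, SE 0.18, adjusted p = 7.8e-14). Gap43, a growth cone protein also expressed in myoblasts, went from 16.7, 14.9 and 16.0 to 0.754, 0.507 and 4.32, and the adducin Add2 from 11.4, 12.3 and 11.5 to 0.452, 1.82 and 0.882. Prl2c3, a proliferin, was at 5.14, 7.68 and 9.58 and then at 0.0502, 0 and 0.139, but it shares reads with near-identical Prl2c copies and is uncertain. The pseudogene Nutf2-ps1 was read at 28.8, 43.1 and 32.9 and 0, 22.6 and 1.07, with day 4 libraries that differ widely, and lost its call with edgeR and DESeq2. Glcci1 spread in the same way on day 4 at 0, 3.39 and 0.743, and without day 4 replicate 1 its change was -1.82 and not called, as was also the case with edgeR (-2.75), with DESeq2 (-2.69), with a robust variance and without the filter.

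The 250 bases before the RefSeq start sites of the 3 largest rises and 3 largest falls with a window in the promoter table used are given here for reading beside these values (mouse GRCm38.p6, 5′ to 3′ on the strand of the gene, with CAGCTG and MEF2 motif letters in capitals). No window is printed for Cd24a, Nutf2-ps1 and Gap43.
Col25a1 (chr3:130180595-130180844, + strand): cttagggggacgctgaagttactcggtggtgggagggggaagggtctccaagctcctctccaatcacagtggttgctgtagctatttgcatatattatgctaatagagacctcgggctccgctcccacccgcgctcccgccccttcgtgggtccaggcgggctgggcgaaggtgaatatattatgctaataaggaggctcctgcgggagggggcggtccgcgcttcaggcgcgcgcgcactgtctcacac
Myh4 (chr11:67237562-67237811, + strand): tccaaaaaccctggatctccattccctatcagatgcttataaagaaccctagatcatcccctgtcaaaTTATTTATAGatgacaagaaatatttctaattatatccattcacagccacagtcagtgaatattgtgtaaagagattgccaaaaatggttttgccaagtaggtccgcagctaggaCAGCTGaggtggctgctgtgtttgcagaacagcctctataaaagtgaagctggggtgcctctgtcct
Mybpc1 (chr10:88605153-88605402, - strand): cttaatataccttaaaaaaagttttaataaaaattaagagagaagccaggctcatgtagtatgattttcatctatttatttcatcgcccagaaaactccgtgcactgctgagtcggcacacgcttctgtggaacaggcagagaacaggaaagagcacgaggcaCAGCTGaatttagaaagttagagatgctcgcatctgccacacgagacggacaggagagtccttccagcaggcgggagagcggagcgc
Prl2c3 (chr13:12800080-12800329, - strand): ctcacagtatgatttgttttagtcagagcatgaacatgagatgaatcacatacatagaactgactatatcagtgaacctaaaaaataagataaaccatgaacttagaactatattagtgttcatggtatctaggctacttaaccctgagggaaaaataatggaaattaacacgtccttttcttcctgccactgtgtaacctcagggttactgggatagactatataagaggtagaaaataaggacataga
Add2 (chr6:86028431-86028680, + strand): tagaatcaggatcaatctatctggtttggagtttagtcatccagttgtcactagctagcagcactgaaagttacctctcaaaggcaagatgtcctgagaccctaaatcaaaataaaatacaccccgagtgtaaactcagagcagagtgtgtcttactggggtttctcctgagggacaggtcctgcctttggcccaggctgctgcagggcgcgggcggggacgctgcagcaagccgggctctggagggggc
Hgf (chr5:16553245-16553494, + strand): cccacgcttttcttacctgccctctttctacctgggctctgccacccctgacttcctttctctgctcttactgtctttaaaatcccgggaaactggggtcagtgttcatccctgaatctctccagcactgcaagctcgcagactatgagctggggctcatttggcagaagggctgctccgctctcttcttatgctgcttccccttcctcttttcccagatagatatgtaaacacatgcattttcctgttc
Myh4 and Mybpc1 held 1 CAGCTG each, and Myh4 held the MEF2 motif in addition. None of the other 4 windows held either set of letters.

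The change between day 2 and day 4 was set beside the earlier steps of the same untreated series. From day 0 to day 1, 3430 genes rose (27.0%) and 3060 fell (24.0%), together 51.0%, in libraries that the later comparison does not share. Of the genes that rose from day 2 to day 4, 565 (33.7%) had risen and 414 (24.7%) had fallen in that first day, and of the genes that fell late, 799 (40.4%) had risen and 483 (24.4%) had fallen. The 565 and 799 genes are 16.5% and 23.3% of the genes that rose in the first day. From day 1 to day 2, 1854 genes rose (14.6%) and 1321 fell (10.4%), together 25.0%, and that step shares the day 2 libraries.

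Several genes turned between the first and the last interval. Gap43, Tmc3, Ppp2r2b and Il2rg showed the largest late falls among genes that had risen by day 1. Tmc3, a channel-like membrane protein, rose by 4.07 in the first day and fell by 2.61 from 32.5, 29.6 and 32.2 to 8.79, 1.72 and 4.60 scaled CPM between day 2 and day 4. Il2rg, the common cytokine receptor chain, rose by 1.20 and then fell by 2.46 to 1.90 ± 1.31. In the other direction, Cd24a, Slco5a1, Fgfrl1 and Anxa8 had fallen by day 1. Anxa8, an annexin, fell by 1.04 in the first day and rose by 2.43 in the last interval, from 60.5, 70.0 and 69.5 to 341, 399 and 352. The FGF receptor-like gene Fgfrl1 fell by 0.83 and later rose by 2.49 to 146 ± 12.7.

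A test of the difference between the day 2 to 4 change and the day 1 to 2 change called 947 genes (7.44%), 236 with the later change higher (1.85%) and 711 with it lower (5.59%). The later interval is of 2 days and the earlier of 1. The later change was lower in 9 of 11 troponin and tropomyosin genes, 11 of 18 genes of titin, nebulin and the M-band, and 9 of 19 genes of excitation-contraction coupling. It was lower in 3 and higher in 1 of 9 myosin heavy chains, and lower in 4 and higher in 2 of 8 light chain genes. For Acta1 the change went from 2.54 to 0.50 (difference -2.04, adjusted p = 1.3e-12) and for Myog from 1.55 to -0.10 (-1.65, adjusted p = 2.3e-08). Myh4 went the other way, from 1.63 to 4.08 (2.45, adjusted p = 0.00057). For Mybpc1 the changes were 2.88 and 3.99, and their difference of 1.11 did not pass (adjusted p = 0.16). In Mef2c the changes were 3.06 and 2.82 and their difference did not pass (adjusted p = 0.64). The count of 947 was 516, 587 or 599 when day 2 replicate 1, 2 or 3 was left out.

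Risen genes at 5 scaled CPM or more on day 4 were taken next, whatever their level on day 2. The share of their day 4 level already present on day 2 lies below 100% by choice. It is the inverse of the fold, so it restates the size of the rise in each group and is no separate test. Its median was 77.2% for 18 nuclear respiratory chain genes, 48.9% for 9 troponin and tropomyosin genes, 50.5% for 15 genes of excitation-contraction coupling, 31.8% for 7 light chain genes and 16.4% for 7 heavy chains. Within the heavy chains it ran from 4.24% for Myh4 to 55.7% for Myh3. Lowest in each list were Myot at 1.03%, Col25a1 at 0.522%, Mb at 8.82% and Casq1 at 13.9%.

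**Figure D5:**
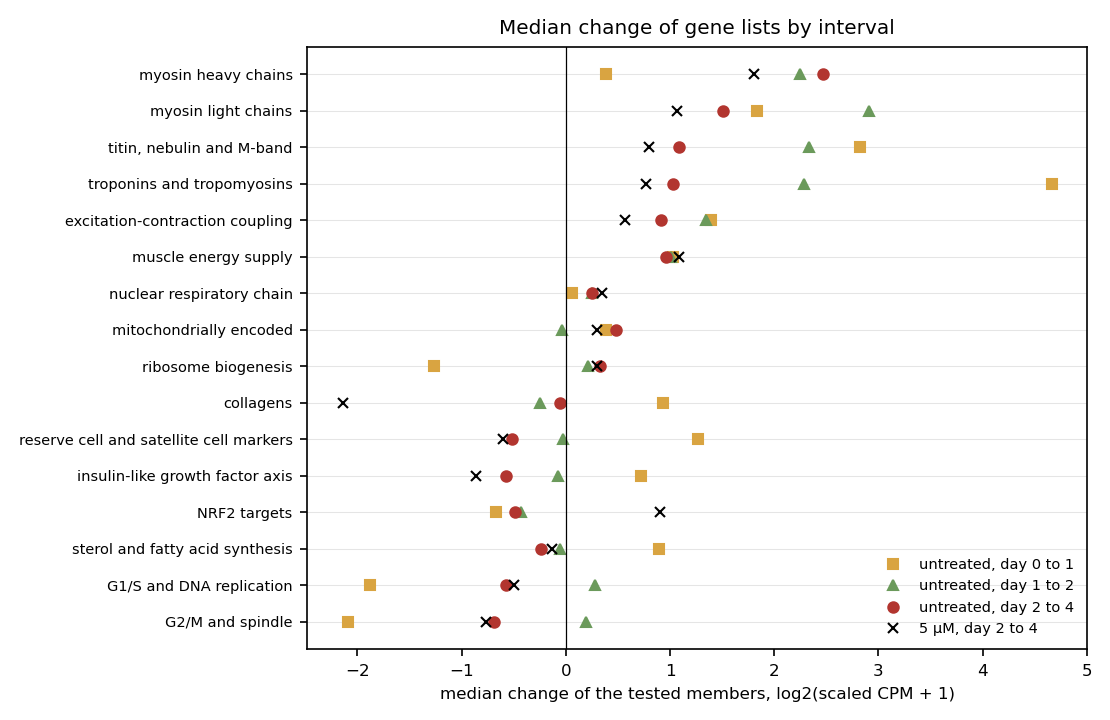
Median change of the tested members of 16 gene lists (x axis, log2 of scaled CPM + 1) for untreated cells in 3 intervals (squares day 0 to 1, triangles day 1 to 2, circles day 2 to 4) and for 5 µM cells from day 2 to 4 (crosses). Myosin heavy chains had their highest median of the 3 untreated intervals in the last, at 2.47, an interval of 2 days against 2.24 in the 1 day before. Collagens separate the 5 µM cells at -2.14 from the untreated ones at -0.06. Neighbouring untreated intervals share libraries.

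With 5 µM chromate the interval ran differently. The difference between the day 2 to 4 change at 5 µM and at 0 µM was called for 3384 genes (26.6%), 1766 higher (13.9%) and 1618 lower (12.7%), and at 2 µM for 61 genes (0.479%). Among the 1677 genes that rose in untreated cells, 500 (29.8%) had a lower change at 5 µM and 82 (4.89%) a higher one, and their median change was 0.62 at 0 µM, 0.51 at 2 µM and 0.37 at 5 µM. Of the 1976 fallen genes, 675 (34.2%) had a higher and 234 (11.8%) a lower change at 5 µM, with medians of -0.66, -0.49 and -0.38. Because the untreated values chose these genes and enter the difference, their medians lie nearer 0 in the treated cells in part by choice. For the same reason the excess of lower differences among risen genes, and of higher ones among fallen genes, is in part built in. The 2 µM count was 123 with DESeq2, 34 with all 30 libraries, 38 without day 2 replicate 1 or day 4 replicate 1, 32 without day 2 replicate 3 and 101 without day 4 replicate 2.

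Collagens had the median difference farthest from 0 among the lists. Of 18 genes, 16 had a lower change at 5 µM, and the median was -2.14 there against -0.06 in untreated cells. Col1a1 went from 37.3 ± 4.71 scaled CPM to 6.60 ± 1.38 at 5 µM, where untreated cells went from 85.5 ± 9.30 to 265 ± 28.0 (difference -3.96, adjusted p = 5.8e-16). Col6a1, a chain of the microfibrillar collagen VI, went from 71.2 ± 11.1 to 5.58 ± 1.82 at 5 µM and did not pass in untreated cells (0.28). That untreated rise was called with the untreated libraries alone, with the 6 libraries alone and with DESeq2 (0.33). Col6a2 had a difference of -3.70. For Col25a1 the difference was -3.90, which lost its call with edgeR and DESeq2. NRF2 targets went the other way in 22 of 28 cases, with a median of 0.90 at 5 µM against -0.49 in untreated cells.

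The sarcomere lists also had positive medians at 5 µM, at 1.81 for heavy chains, 1.07 for light chains, 0.77 for troponins and tropomyosins and 0.18 for the Z-disc. The difference was called lower for 4 of 9 myosin heavy chains, 2 of 8 light chains, 3 of 11 troponin and tropomyosin genes and 11 of 22 Z-disc genes, and called higher for 0, 0, 0 and 2. For titin, nebulin and the M-band it was lower in 5 of 18 and higher in 0, and for sarcomere assembly in 1 and 1 of 13. Among all genes that rose in untreated cells it was called lower for 29.8%. Myh4 rose less, with a difference of -1.38 (adjusted p = 0.0069), and so did Mef2c (-0.53, adjusted p = 0.023). Cdkn1c went from 7.91 ± 2.04 to 5.69 ± 2.11 scaled CPM at 5 µM, and the difference between its changes was -2.50 (adjusted p = 8.4e-07). For Myh1 (-0.38, adjusted p = 0.19), Mb (-0.17, adjusted p = 0.6) and Casq1 (-0.49, adjusted p = 0.3) the difference did not pass, which does not show that the changes were alike.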

How the data were processed

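RNA of C2C12 cultures was made into Illumina TruSeq libraries, per the labels' protocols. The deposited signal values are CPM that the authors scaled further for each library, as the column sums show. Aligner, counter, genome build, strand setting and scaling method: not given in the sources used here. Dividing by the smallest step of a library gave whole reads for 100% of values (tolerance 0.02 read). The members, gene lists and promoter sets were chosen with earlier results of these data known.

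Genes at 1 scaled CPM or more in 3 or more libraries were fitted with limma 3.58.1 (R 4.3.3) on log2(scaled CPM + 1), with a mean-variance trend and 1 mean per group, over 24 libraries in 8 groups (16 residual degrees of freedom). The treated day 1 groups were left out, since an earlier account of these data reported transcripts of other cells in libraries there. Adjusted p-values are Benjamini-Hochberg over all genes tested. Alternatives were edgeR 4.0.16 and DESeq2 1.42.0 on recovered reads, other filters, pseudocounts, scalings and sets of libraries, and each of the 6 libraries left out.

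Genes named are 30 key genes, the 10 largest rises and falls among called genes at 5 scaled CPM or more with separate groups, up to 4 called members of each list, and the 4 largest in each direction that turned after day 1 or differed with dose; list members that did not pass are named for contrast. Of 994 list members 991 were found, 4 of them by an older symbol, and 876 passed the filter. Shares within families used exon lengths of GENCODE M21, taken as the union of all annotated exons of a gene. This union can exceed the transcripts present, and it was 11772 bases for Myh8 and 6057 for Myh3. Shares of different genes on the same day are therefore uncertain. Replicates correlated at 0.989 to 0.991 on day 2 and at 0.978 to 0.981 on day 4, so the day 4 libraries were less alike. The fit held 1 variance per gene for all groups, so its p-values do not reflect a larger spread on day 4. A gene with 11 to 20 reads in a library was at 0 in another replicate in 17.8% of pairs on day 2 and 34.2% on day 4. Low values are therefore imprecise, and whether the authors set low values to 0 before deposit is not known. On simulated day 4 against day 2 counts (12454 genes), limma recovered 36.4%, 77.3% and 91.2% of genes changed 1.5-, 2- and 4-fold. Of its 143 calls there, 6 (4.20%) were false. The simulation gave a gene the same dispersion in all groups, held few changed genes and added no zeros of the kind above. The share of false calls in the data may therefore differ.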

Additional observations from a re-analysis of the deposited data

Results flagged for a closer look

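The change from day 2 to day 4 differed between 5 µM chromate and untreated cells by a test of the difference itself in 8 genes chosen as the 4 highest and 4 lowest called differences. On the log2 scale the difference (5 µM minus 0 µM) was 4.182 for Nutf2-ps1, 3.673 for Trib3, 3.292 for Prl2c2 and 3.29 for Mmp3. It was -3.963 for Col1a1, -3.901 for Col25a1, -3.765 for Col6a1 and -3.697 for Col6a2. The calls of Nutf2-ps1 and Col25a1 were lost with edgeR, at 2.31 and -2.74, and with DESeq2, at 2.28 and -2.64, and Nutf2-ps1 was also not called with a robust variance or without the filter. Prl2c2 shares reads with near-identical copies.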

How the results depend on the processing

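The counts of risen and fallen genes stayed within 1.5 times of 1677 and 1976 in all 20 alternatives run. They were 1441 and 1914 with edgeR, 1843 and 1765 with DESeq2, 1330 and 2433 with scaling by library total (35.3% of calls higher against 45.9%), and 1881 and 1756 with median-of-ratios scaling. With a pseudocount of 4, 242 genes rose and 139 fell by 2-fold or more. Leaving out 1 library gave 2902 to 3480 called genes, 1313 to 1582 risen and 1589 to 1898 fallen, 442 to 471 risen and 346 to 410 fallen by 2-fold or more, 2534 to 3300 called from day 1 to 2 and 6406 to 6616 from day 0 to 1. The same omissions gave 2865 to 3334 calls for the 5 µM difference, 32 to 101 for the 2 µM difference, 516 to 985 for the difference between intervals, and 1.81 to 2.73 percentage points for the mitochondrial share. The 2 µM count was 34 with all 30 libraries and 123 with DESeq2. Without 1 library, Gm7325 ranged from -0.17 to 0.05 (0.0051 without day 2 replicate 3 and 0.046 without day 4 replicate 3) and Id1 from -0.30 to 0.05 (0.0527 without day 4 replicate 1). The cause was not tested. Replicates with the same number did not deviate together (correlations -0.0129, -0.0609 and -0.0163), and a replicate block gave 3692 calls. Over the named genes, 4034 values kept direction and call, 146 lost the call, 12 gained it and 3 changed sign.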

Other observations

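Several more muscle genes rose between day 2 and day 4 that no list held, and they were chosen here after their values were seen. Ppp1r3a, the muscle subunit that brings protein phosphatase 1 to glycogen, went from 0.151 ± 0.226 to 11.9 ± 3.53 scaled CPM (log2 change 3.47, limma adjusted p = 9.8e-11). Trim72, which patches torn muscle membranes, went from 138 ± 5.76 to 461 ± 69.3, and the Z-disc protein Mypn and the unconventional myosin Myo18b rose by 2.31 and 2.47. The calcium-calmodulin kinase genes Camk2a and Camk2b rose by 1.54 and 2.46. Dio2, the deiodinase that activates thyroid hormone, went from 38.2 ± 4.84 to 154 ± 21.7, and Crym, a binder of that hormone, rose by 2.47.

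More genes outside the lists were also chosen after their values were seen. The p53 relative Trp63 went from 13.7 ± 2.57 to 52.2 ± 6.98 scaled CPM (1.86, limma adjusted p = 2.7e-06), and Grhl3, Fras1 and Upk1b rose by 2.24, 2.00 and 1.87. Of the epithelial markers, Epcam, Krt5, Krt18 and Esrp1 were listed at 0 in all 6 libraries, but 2 of the 3 tested rose and 0 fell. Cdh1 went from 3.30 to 6.29 scaled CPM on day 2 to 9.75 to 11.7 on day 4, a call lost with all 30 libraries. Krt14 rose by 0.97 with overlapping groups, and its call was lost in the 6 libraries alone. The alarmin gene Il33 went from 66.7 ± 3.44 to 13.2 ± 0.467 (-2.25, limma adjusted p = 1.9e-15), the hyaluronan receptor gene Cd44 from 753 ± 13.7 to 259 ± 37.5, and the chemokine gene Cxcl12 fell by 1.54. Hmga2, a chromatin protein of dividing progenitors, and the cell cycle kinase gene Cdk6 fell by 2.02 and 1.34.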
